A study of Rattus norvegicus with 13 samples.

Results

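The complement components and regulators examined were 9 genes, C3, C1s, C1r, C2, Cfb, Cfd, Cfi, Serping1 and Cd55, in rat articular chondrocytes exposed to glucosamine, IL-1β or both. They were chosen by symbol: every probe set annotated to exactly 1 gene, where that gene was 1 of the 9, was taken. Of the 14217 genes with a probe set of their own on the array, 7 were members, with 8 probe sets. C2 and Cfb had none of their own, and 4 probe sets annotated to both of them are described below as shared and attributed to neither. All 7 measured members passed the filter on low values, although Cfd did so through a single array and Cfi only through arrays with IL-1β.

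The cartilage was that of the femoral head in 2-month-old male Wistar rats, and its chondrocytes were grown in medium with fetal bovine serum, pooled at the second passage and divided over flasks, with 1 Affymetrix Rat Genome 230 2.0 array per flask. Untreated cultures (3 arrays) received neither agent. The glucosamine cultures (2 arrays) were kept in 20 mM glucosamine for 20 hours, and the IL-1β cultures (4 arrays) received 10 ng/ml IL-1β for 14 hours. The cultures with both agents (4 arrays) had 20 mM glucosamine for 6 hours before 10 ng/ml IL-1β was added for 14 hours, with glucosamine still present. Since all flasks were seeded from 1 pool of cells, p-values measure the spread between flasks and not between animals. RNA came from whole cultures, in which fewer cells of a type and less RNA per cell cannot be told apart.

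Complement is a cascade of plasma and tissue proteins that tags surfaces with fragments of C3 and can end in a membrane pore. The classical pathway starts with the proteases C1r and C1s bound to C1q, the alternative pathway with factors B and D, and C2 is the classical counterpart of factor B. C1 inhibitor (Serping1), factor I (Cfi) and decay-accelerating factor (Cd55) restrain it at successive steps. Most plasma complement is made in the liver, but connective tissue cells also produce components, and C3 and factor B are known as acute-phase genes that inflammatory cytokines induce.

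The members lie on several chromosomes (RefSeq annotation, build GRCr8). C3 is at chr9:2174412-2201339, Serping1 at chr3:90249410-90259299, Cfi at chr2:221062206-221104790, Cfd at chr7:10463773-10465496 and Cd55 at chr13:44409574-44438913. The genes of the 2 classical proteases are neighbours, C1r at chr4:159099013-159109770 and C1s at chr4:159116549-159128736, with 6778 bases between them. C2 (chr20:3944722-3975006) and Cfb (chr20:3975271-3981138) are only 264 bases apart, and it is this pair that shares its probe sets.

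Promoter sequences of 300 bases, from 250 before to 50 after the annotated start, were found in RefSeq (GRCr8) for 5 of the 9 members, C3, C1r, Cfd, Cfi and Cd55. They were searched on both strands for the NF-kB consensus, for TTCNNNGAA (a STAT site), for GAAANNGAA (the core of an interferon response element) and for TTGCNNAA (the core of a C/EBP site). The promoters of C3 (chr9:2201290-2201589, minus strand), C1r (chr4:159098763-159099062, plus strand) and Cd55 (chr13:44438052-44438351, minus strand) are shown, since these 3 genes differed from each other in their response. Capitals mark TTGCNNAA, the sole one of the 4 motifs with a match.
C3: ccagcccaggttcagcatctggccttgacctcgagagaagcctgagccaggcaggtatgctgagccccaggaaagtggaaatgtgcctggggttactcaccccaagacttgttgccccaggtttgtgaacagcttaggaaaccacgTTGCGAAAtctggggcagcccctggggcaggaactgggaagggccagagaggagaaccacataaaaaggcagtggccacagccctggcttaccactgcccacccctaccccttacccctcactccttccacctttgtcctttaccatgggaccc
C1r: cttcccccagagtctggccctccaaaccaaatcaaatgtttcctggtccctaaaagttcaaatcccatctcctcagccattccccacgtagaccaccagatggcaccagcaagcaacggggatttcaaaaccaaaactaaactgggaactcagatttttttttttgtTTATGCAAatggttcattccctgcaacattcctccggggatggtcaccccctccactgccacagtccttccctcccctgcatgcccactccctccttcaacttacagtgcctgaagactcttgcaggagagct
Cd55: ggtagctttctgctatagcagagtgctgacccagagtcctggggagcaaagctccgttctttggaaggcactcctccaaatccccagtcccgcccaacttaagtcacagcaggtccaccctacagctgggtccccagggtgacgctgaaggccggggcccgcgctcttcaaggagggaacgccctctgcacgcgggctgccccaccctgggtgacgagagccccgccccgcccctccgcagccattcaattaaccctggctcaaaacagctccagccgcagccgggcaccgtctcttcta
The match in C3 begins at position -104 from the start and reads TTGCGAAA. That in C1r begins at position -83 on the opposite strand and reads TTATGCAA as printed. No motif was matched in the promoters of Cfd, Cfi and Cd55. Of all 33469 promoters of that length, 10.6% held TTGCNNAA, 4.18% the NF-kB consensus, 8.87% TTCNNNGAA and 9.71% GAAANNGAA. For Cfi and Cd55 the start used lies inside the gene interval given above and is therefore not the outermost annotated one. These matches are descriptions of the letters and no evidence of binding.

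The values are intensities on the linear scale as deposited. For the tests they were raised to a floor of 5.71, the 25th percentile of all values, and taken as log2. Of 31042 probe sets, 29263 were above the floor on at least 1 array and were fitted together with limma, and a member is called where its 2-sided Benjamini-Hochberg adjusted p is under 0.05. A fold change is a ratio of geometric means, and levels of different probe sets are not compared. Array means lay between 127 and 145. The replicate d arrays of the IL-1β cultures and of those with both agents stood apart at low intensities, with 25519 and 25372 probe sets above the floor against 22130 to 23489 on the other arrays. Of the measured cartilage markers, 12 of 13, among them Col2a1, were above the floor on every array, and Chad was under it on every array. All 8 measured synovial and fibroblast markers were also above it on every untreated, glucosamine and both-agent array, and 7 on every IL-1β array. Being above the floor thus does not tell these cell types apart.

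**Figure D1:**
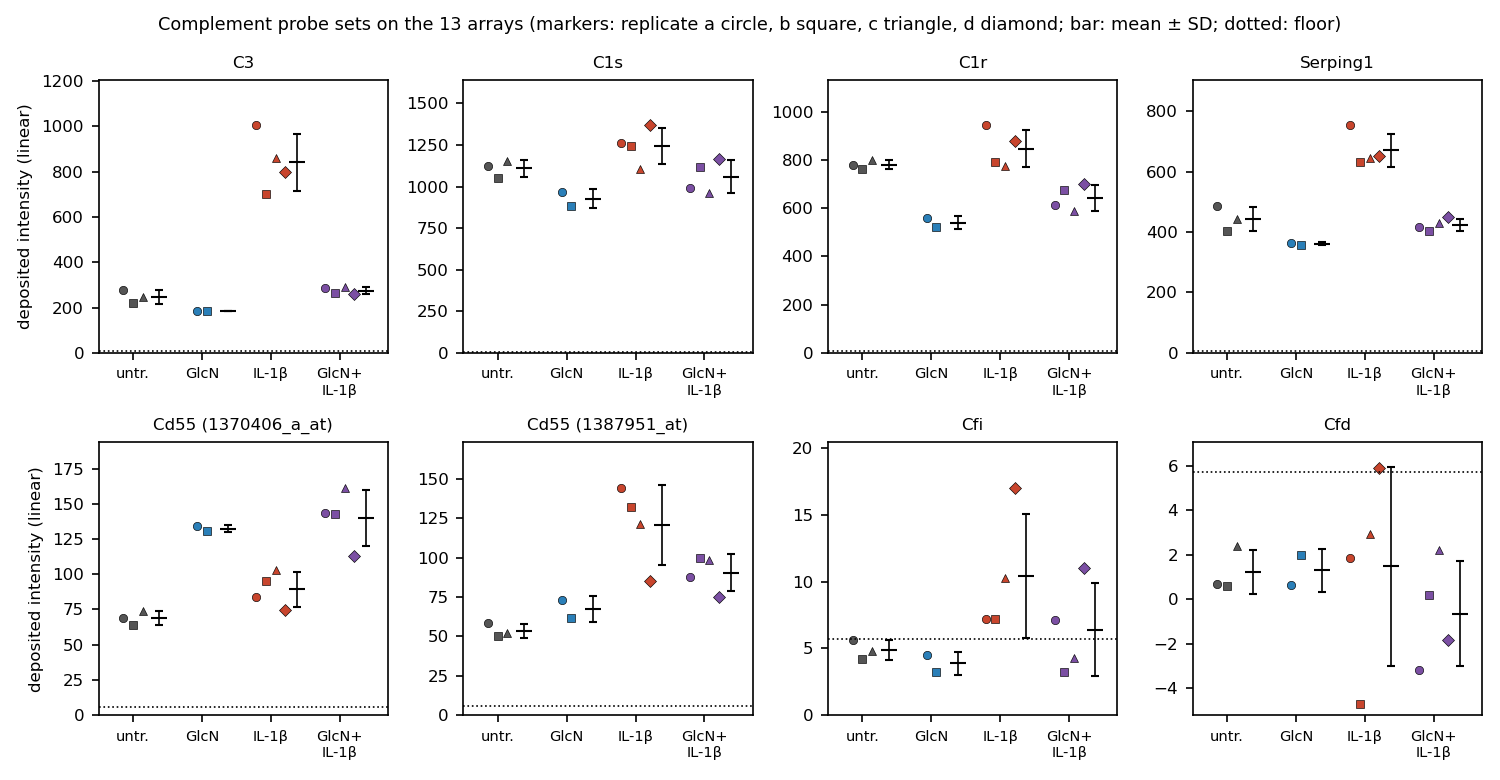
Deposited intensity (linear vertical axis) of the 8 probe sets of the 7 measured members in untreated cultures (untr.), with glucosamine (GlcN), with IL-1β and with both. Points are arrays, shaped by replicate letter, bars are mean ± SD and the dotted line is the floor of 5.71; C3 and Serping1 stand apart in the IL-1β cultures, whereas Cd55 (1370406_a_at) is higher in all 6 cultures with glucosamine and Cfd lies under the floor on all but 1 array.

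C3 carries the step at which all complement pathways meet, since its cleavage deposits C3b. Its intensity (probe set 1368000_at) was 279, 219 and 244 in the untreated cultures and 1004, 703, 862 and 799.6 with IL-1β. With glucosamine alone it was 183 and 185, and with both agents 284, 264, 289.9 and 261. Every IL-1β array was therefore above every other array, and the arrays with both agents overlapped with the untreated ones.

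With IL-1β, C3 rose 3.39-fold over untreated cultures (log2 1.76, SE 0.11, adjusted p = 3.35e-07, limma). With both agents it was 3.04-fold lower than with IL-1β alone (log2 -1.61, SE 0.10, adjusted p = 5.88e-07). In linear intensity the mean fell from 842 ± 126 (SD, n = 4) to 275 ± 14.4 (SD, n = 4), against 247 ± 30.5 (SD, n = 3) untreated, so that 95.4% of the mean rise was absent. Leaving out any 1 array gave 92.9 to 97.8%. Both calls held in all 24 alternative settings, and C3 in cultures with both agents did not differ from untreated cultures by the test (log2 0.16, 95% confidence interval -0.09 to 0.40, adjusted p = 0.40).

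The response of C3 to IL-1β was smaller with glucosamine present than without it by 1.19 on the log2 scale (value -1.19, SE 0.17, adjusted p = 0.000890). This interaction compares the change from glucosamine to both agents with the change from untreated to IL-1β. Of the 7 measured members, C3 was the only one for which it passed the test. Over all probe sets tested, the interaction was called negative, as for C3, in 4.57% and positive in 3.98%.

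A part of the C3 response was present over glucosamine. Cultures with both agents had 1.49-fold more C3 signal than those with glucosamine alone (log2 0.57, SE 0.13, adjusted p = 0.0473), and the arrays of these groups did not overlap. No other measured member was called in this contrast, in which 0.933% of all probe sets were called higher and 0.861% lower. The call was lost in 15 of 24 alternative settings, with log2 values of 0.55 to 0.60 throughout. Leaving out glucosamine replicate a raised the adjusted p to 0.36, and leaving out replicate b to 0.33, while without both replicate d arrays it was 0.052.

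Glucosamine alone gave a lower C3 intensity on both arrays than on any untreated array. The log2 difference of -0.42 (SE 0.13, 95% confidence interval -0.71 to -0.12) missed the threshold at an adjusted p of 0.061, and was called in 6 of 24 alternative settings (adjusted p from 0.0242 to 0.24 over the fits).

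Of the proteases of the first component, C1r was called lower in each contrast that set cultures with glucosamine against cultures without it. C1s was called in none of them in the limma fit described above. The intensity of C1r (1383241_at) was 781, 765 and 800.0 in untreated cultures, 560.1 and 521 with glucosamine, 944, 792, 777 and 879 with IL-1β, and 612, 675, 587 and 700.2 with both agents. All 6 arrays with glucosamine were thus below all 7 without it, whether or not IL-1β was given.

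C1r fell 1.45-fold with glucosamine alone (log2 -0.53, SE 0.10, adjusted p = 0.00278) and was 1.32-fold lower with both agents than with IL-1β (log2 -0.40, SE 0.08, adjusted p = 0.00215). Against untreated cultures, both agents gave a 1.22-fold lower level (log2 -0.28, SE 0.08, adjusted p = 0.0236). That last call was lost in 7 of 24 alternatives, among them leaving out untreated replicate a, b or c or replicate a or c with both agents, at adjusted p values of 0.057 to 0.088. IL-1β itself left C1r without a call (log2 0.11, 95% confidence interval -0.06 to 0.29, adjusted p = 0.40).

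C1s (1387893_at) had intensities of 1124, 1053 and 1153 in untreated cultures, 966 and 885 with glucosamine, 1264, 1243, 1107 and 1367 with IL-1β, and 992, 1119.5, 963 and 1164 with both agents. Both glucosamine arrays were below all untreated arrays, and the arrays with both agents overlapped with those of each other group. No contrast of C1s was called in the limma fit described above. Over 24 alternative settings C1s was called lower in 6 between both agents and IL-1β, and in 1 with glucosamine alone. Between both agents and IL-1β, C1s was lower in all 4 same-letter pairs, and the fit with the letter as a block called it lower (adjusted p = 0.0316). The log2 differences were -0.26 with glucosamine (95% confidence interval -0.49 to -0.03, adjusted p = 0.14), -0.23 between both agents and IL-1β (-0.41 to -0.06, adjusted p = 0.058) and 0.16 with IL-1β (-0.03 to 0.35, adjusted p = 0.23). Across the 4 group means, each set centred on its own mean, C1r and C1s were the closest pair of members, at a root mean square distance of 0.11 on the log2 scale.

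Serping1, the inhibitor that inactivates C1r and C1s, rose with IL-1β and was lower again with glucosamine, as C3 was, by smaller folds. Its intensity (1372254_at) was 484, 404 and 442 in untreated cultures, 364 and 358 with glucosamine, 752, 632, 645 and 652 with IL-1β, and 415, 403, 429 and 450.0 with both agents. The IL-1β arrays were again above all others, and those with both agents overlapped with the untreated arrays.

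Serping1 rose 1.51-fold with IL-1β (log2 0.60, SE 0.08, adjusted p = 0.000108). It was 1.58-fold lower with both agents than with IL-1β alone (log2 -0.66, SE 0.07, adjusted p = 3.39e-05). Both calls held in all 24 alternatives. The mean with both agents, 424 ± 20.2 (SD, n = 4), was below the untreated mean of 444 ± 40.2 (SD, n = 3), so 108% of the rise to 670.5 ± 55.3 (SD, n = 4) was absent, or 99.5 to 118.7% on leaving out any 1 array. That share is relative to untreated cultures. Over glucosamine alone (361 ± 4.35, SD, n = 2), the arrays with both agents were all higher, by 0.23 on the log2 scale (95% confidence interval 0.04 to 0.42, adjusted p = 0.41), and 39.1% of the log2 response to IL-1β remained on that baseline. With glucosamine alone Serping1 was lower on both arrays than on any untreated array, with a log2 difference of -0.29 (95% confidence interval -0.49 to -0.09) that missed the threshold at an adjusted p of 0.052 and was called in 8 of 24 alternatives (adjusted p from 0.0223 to 0.25 over the fits). The interaction of -0.36 (SE 0.12) was not called (adjusted p = 0.087).

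Counted together, 2 of the 7 measured members, C3 and Serping1, were called with IL-1β, both higher, where 11.1% of all probe sets tested were called higher and 24.1% in either direction. Between both agents and IL-1β, 3 members were lower (C3, Serping1 and C1r) and 1 was higher (Cd55), against 11.4% of all probe sets lower and 11.9% higher. The median log2 difference of the 7 members was -0.40 in that contrast and 0.36 with IL-1β, and the medians of all probe sets tested were 0.03 and 0.10. In the contrast of both agents with IL-1β, a fit with the replicate letter as a block also called C1s (adjusted p = 0.0316) and Cfi (adjusted p = 0.0267) lower. The labels do not say what the letters mark. In this contrast deviations of same-letter arrays correlated at 0.38 to 0.80, so the letters were taken as pairs here. The counts given first are those of the fit without the block. Without both replicate d arrays, 4 members were called with IL-1β, Cfi and Cd55 being added, and 6 between both agents and IL-1β, C1s and Cfi being added. That alternative was chosen after the data were seen. Cfi lay near the floor and, in the limma fit described above, passed the filter only through arrays with IL-1β, so no result is drawn from its calls.

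**Figure D2:**
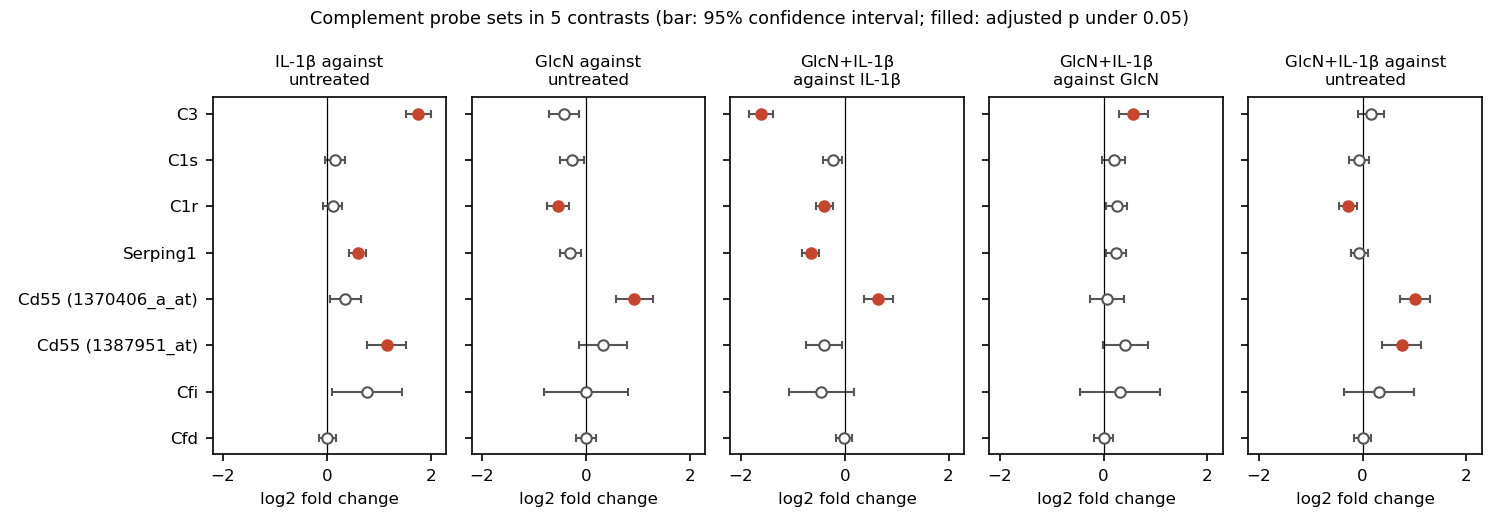
Log2 fold change (horizontal axis) of each member probe set in 5 contrasts, with GlcN for glucosamine; bars are 95% confidence intervals of the limma fit and filled points are called at an adjusted p under 0.05. C3 and Serping1 were called higher with IL-1β and lower on adding glucosamine, C1r was called lower in each of the 3 contrasts that set glucosamine-treated against glucosamine-free cultures, and the probe sets of Cd55 were called in different contrasts.

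Cd55 anchors to the membrane and speeds the decay of the convertases that cleave C3, and its representative probe set moved opposite to C1r. The intensity of 1370406_a_at was 69.2, 64.3 and 74.2 in untreated cultures, 134 and 131 with glucosamine, 83.9, 95.1, 103 and 74.9 with IL-1β, and 143, 143, 161 and 113 with both agents. All 6 arrays with glucosamine were above all 7 without it.

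On that probe set Cd55 rose 1.92-fold with glucosamine (log2 0.94, SE 0.16, adjusted p = 0.00176), was 1.57-fold higher with both agents than with IL-1β (log2 0.65, SE 0.12, adjusted p = 0.00219) and 2.01-fold higher with both agents than untreated (log2 1.01, SE 0.13, adjusted p = 0.000151). With glucosamine alone, Cd55 was the 1 member called higher and C1r the 1 called lower, where 7.14% of all probe sets were called higher and 7.56% lower. The same pair made up the members called between both agents and untreated cultures, against 11.5% of all probe sets higher and 12.4% lower. IL-1β gave a log2 difference of 0.36 (SE 0.13, adjusted p = 0.077), which became a call without IL-1β replicate d (0.44, adjusted p = 0.0298), without replicate d of both agents (adjusted p = 0.0324) and without either (adjusted p = 0.00451).

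The second Cd55 probe set, 1387951_at, gave a different picture. Its intensity was 58.4, 50.1 and 51.8 in untreated cultures, 73.1 and 61.7 with glucosamine, 144, 132, 121 and 85.3 with IL-1β, and 87.9, 100.1, 98.6 and 74.7 with both agents. Here the IL-1β arrays led, with replicate d the lowest of them and below 3 of the 4 arrays with both agents.

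On 1387951_at Cd55 rose 2.22-fold with IL-1β (log2 1.15, SE 0.17, adjusted p = 0.000386), a call that held in all 23 alternative fits. Glucosamine alone gave a log2 difference of 0.33 (SE 0.21, adjusted p = 0.42) and no call. Between both agents and IL-1β the sign was the reverse of that on 1370406_a_at (log2 -0.40, SE 0.16, adjusted p = 0.10), though not called, and 45.2% of the mean rise was absent. With the replicate letter as a block it was called lower (log2 -0.40, SE 0.10, adjusted p = 0.0136), so that in this fit the probe sets of Cd55 were called in opposite directions. Against untreated cultures with both agents, each probe set was called higher, by 1.68-fold on 1387951_at (adjusted p = 0.00731). The glucosamine response of Cd55 thus rests on 1 of its 2 probe sets, and which transcripts each detects is not given in the sources used here.

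Cfi, the protease that degrades C3b with its cofactors, was at the lower edge of detection. Its intensity (1368205_at) was 5.64, 4.20 and 4.79 in untreated cultures, 4.49 and 3.26 with glucosamine, 7.21, 7.18, 10.2 and 17.03 with IL-1β, and 7.10, 3.20, 4.25 and 11.04 with both agents. No array without IL-1β was above the floor, whereas all 4 IL-1β arrays and 2 of the 4 with both agents were. With IL-1β the log2 difference over the floored untreated value was 0.77 (SE 0.31, adjusted p = 0.10) and not called. The highest values were those of the replicate d arrays, and without both of them the difference was 0.59 at an adjusted p of 0.0169. That exclusion was chosen after the data were seen. With untreated values of 4.20 to 5.64, near or under the floor, no fold change of Cfi is read from it.

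Cfd, or factor D (adipsin), the protease that cleaves factor B, was not detectable above the floor on 12 of 13 arrays. Its intensity (1388602_at) ranged from -4.73 to 5.87, and the exception was IL-1β replicate d, at 5.87. No difference of Cfd can be read from these values.

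The genes of factor B and C2 encode the serine proteases of the alternative and the classical C3 convertase. The 4 probe sets annotated to both gave unlike results. On 1389470_at the intensity was 26.8, 16.5 and 25.6 in untreated cultures, 22.7 and 27.1 with glucosamine, 275, 194, 273 and 218 with IL-1β, and 39.3, 31.8, 38.9 and 23.6 with both agents. The lowest IL-1β array was far above the highest of the other 9.

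The signal of 1389470_at rose 10.6-fold with IL-1β (log2 3.40, SE 0.23, adjusted p = 5.70e-07) and was 7.26-fold lower with both agents than with IL-1β (log2 -2.86, SE 0.21, adjusted p = 1.76e-06). The response to IL-1β was smaller with glucosamine present, with an interaction of -3.01 (SE 0.35, adjusted p = 0.000197). Of the mean rise, 95.2% was absent with both agents, close to the 95.4% of C3, and leaving out any 1 array gave 93.7 to 96.6%. Those shares are relative to untreated cultures. Over glucosamine alone the remaining difference was 0.40 (95% confidence interval -0.18 to 0.97, adjusted p = 0.82). On that baseline 11.7% of the log2 response to IL-1β remained, against 32.6% for C3.

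The other 3 shared probe sets had no call in any of the 6 contrasts. With IL-1β their log2 differences were 0.45 (SE 0.19, adjusted p = 0.12) on 1383391_a_at, 0.21 (SE 0.31, adjusted p = 0.68) on 1383392_at and 0.59 (SE 0.32, adjusted p = 0.23) on 1393219_at. Their IL-1β intensities ranged from 104 to 158, from 40.1 to 55.9 and from 34.0 to 71.5, against 79.9 to 108, 37.0 to 43.3 and 27.2 to 33.4 untreated. The annotation does not tell which of the 2 genes each probe set reads, so by it the rise on 1389470_at is a change at the C2 and Cfb locus only. The paper lists the factor B precursor, and not C2, among the genes that IL-1β raised most and whose rise glucosamine inhibited. It names no probe set for that entry.

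**Figure D3:**
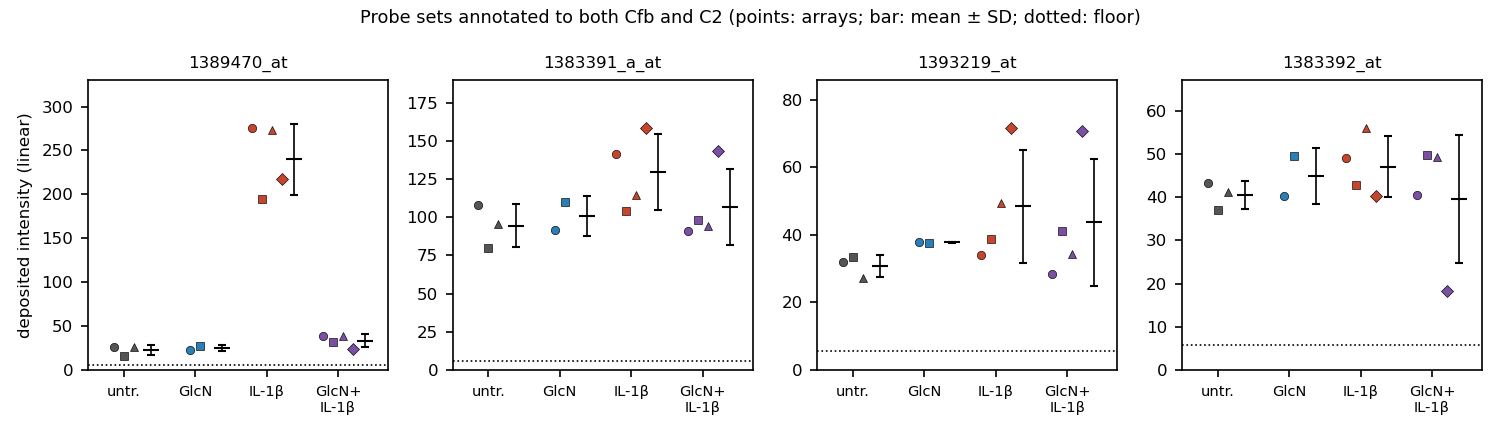
Deposited intensity (linear vertical axis) of the 4 probe sets annotated to both Cfb and C2, in untreated cultures (untr.), with glucosamine (GlcN), with IL-1β and with both; points are arrays shaped by replicate letter, bars are mean ± SD and the dotted line is the floor of 5.71. On 1389470_at the IL-1β arrays lay between 194 and 275 and all others at or below 39.3, whereas on the other 3 probe sets the IL-1β group overlapped with at least 1 other group.

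A further 48 complement genes were listed by role, of which 36 had a probe set of their own and 32 were tested. With IL-1β 2 of them were called higher and 4 lower, with glucosamine 1 and 4, and between both agents and IL-1β 3 and 3. Against untreated cultures, both agents gave 2 higher and 5 lower, and no gene was called between both agents and glucosamine. The shares of all probe sets called in the same contrasts are those given above, 24.1% in either direction with IL-1β. The median log2 difference over the 32 was 0.01 with IL-1β and 0.06 between both agents and IL-1β.

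Among recognition molecules and initiating proteases, the genes of C1q, the partner that C1r and C1s need, were low. C1qa was above the floor on 2 of 13 arrays and C1qc on 2, C1qb lay between 25.9 and 89.5, and none was called. Colec12, a scavenger receptor of the collectin family, fell with glucosamine from 965 ± 21.3 (SD, n = 3) to 557 ± 10.7 (SD, n = 2), a log2 change of -0.79 (adjusted p = 2.00e-05), and with IL-1β by 0.37 on the log2 scale (adjusted p = 0.000676). Masp1, a protease of the lectin pathway, fell with glucosamine from 47.6 ± 1.46 (SD, n = 3) to 13.3 ± 1.63 (SD, n = 2), a log2 change of -1.85 (adjusted p = 0.000515). Mbl2, a mannose-binding lectin, went from 39.3 ± 6.38 (SD, n = 3) to values of -140 to -22.4 with IL-1β, below 0 on all 4 arrays. With these raised to the floor it was called lower, by 6.82-fold (adjusted p = 0.00480). That fold is set by the floor, and values so far below 0 do not give a transcript level. Masp1 was also called lower between both agents and IL-1β (log2 -1.16, adjusted p = 0.00124) and between both agents and untreated cultures (log2 -1.60, adjusted p = 0.000201), the same contrasts in which C1r was.

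Among regulators, Cd59b, which blocks the membrane attack complex, went from 307 ± 7.82 (SD, n = 3) untreated to 164 ± 24.4 (SD, n = 2) with glucosamine, 152 ± 19.8 (SD, n = 4) with IL-1β and 135 ± 5.96 (SD, n = 4) with both agents. It fell by 0.91, 1.02 and 1.18 on the log2 scale (adjusted p = 0.000395, 1.75e-05 and 6.35e-06). Clu, clusterin, which also binds the terminal complex, fell in the same 3 contrasts, by 0.40, 0.57 and 0.53 (adjusted p = 0.00746, 8.25e-05 and 0.000168). Cd46, a cofactor of factor I, rose with glucosamine by 0.97 on the log2 scale (adjusted p = 0.0309), near the floor, from 6.18 ± 0.637 (SD, n = 3) to 12.3 ± 1.17 (SD, n = 2). Of the regulators, Cd46 and the representative probe set of Cd55 were the ones called higher with glucosamine.

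None of the 6 tested genes of C5, the terminal components and properdin was called in any contrast. Among the 6 tested receptors the sole call fell on Itgb2, the shared chain of complement receptors 3 and 4. It was under the floor on all untreated and glucosamine arrays, at 30.7 to 38.2 with IL-1β, at least 5.97-fold higher (adjusted p = 4.86e-05), and above the floor on 1 of 4 arrays with both agents. Itgb2 thus passed the filter only through arrays with IL-1β. Its untreated values were all set to the floor and had no spread, so the adjusted p is given as a description only. Of the other chains of complement receptors 3 and 4, Itgax was under the floor on every array. Itgam was under it on all arrays but 1, which had both agents. The call of Itgb2 is therefore not read as a rise of these receptors. The C1q genes, Colec12, Clu, Itgam, Itgax and the Cd59b values with a single agent were chosen for mention after their values had been seen.

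**Figure D4:**
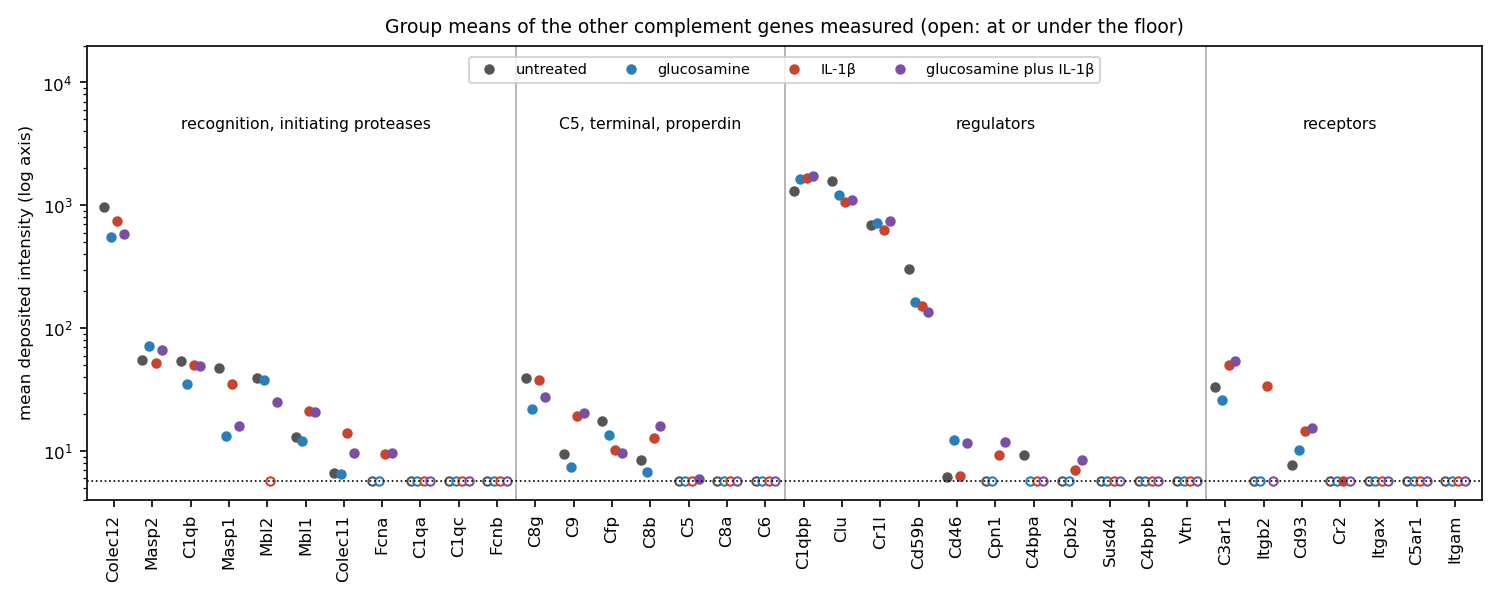
Mean deposited intensity (logarithmic vertical axis) of the 36 other complement genes measured, grouped by role and, within a role, ordered by their highest group mean; colours are the 4 groups, open points are means at or under the floor of 5.71 (dotted) drawn at the floor. Colec12, C1qbp, Clu, Cr1l and Cd59b lie above 100 in every group, most other genes lie near the floor, and levels of different probe sets are not to be compared with each other.

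Markers of other cells moved with IL-1β and are given beside the rise of C3, Serping1 and 1389470_at. Of 13 measured leukocyte and macrophage markers, 2 were called higher, Cd14 (235 ± 10.6 untreated, SD, n = 3, and 357 ± 27.0 with IL-1β, SD, n = 4) and Cd68 (below 0 on all untreated arrays and 132 to 219 with IL-1β). The summed level of that list was 294 to 308 in untreated cultures, 313 to 386 with glucosamine, 636 to 819 with IL-1β and 411 to 670 with both agents. Cd14 made up most of that sum in untreated cultures, and Cd14 and Cd68 together most of it with IL-1β. Csf1r, Adgre1, Cd163, Tyrobp and Cd53 were under the floor on all untreated and glucosamine arrays. Of 8 adipocyte markers, Fabp4 (15.3 ± 1.57 untreated, SD, n = 3, and 817 ± 180 with IL-1β, SD, n = 4) and Cidec (below 0 on all untreated arrays and 36.5 to 66.3 with IL-1β) were called higher with IL-1β. Fabp4 made up most of the sum of that list with IL-1β, and the list summed to 64.6 to 66.4 untreated, 45.1 to 57.2 with glucosamine, 677 to 1158 with IL-1β and 106 to 288 with both agents, while Lep and Pparg were under the floor on all arrays of the first 3 groups. Of 7 endothelial markers, Pecam1 and Tek were called higher with IL-1β. That list summed to 81.3 to 121 untreated, 91.6 to 98.3 with glucosamine, 129 to 324 with IL-1β and 95.2 to 292 with both agents. Vwf and Emcn were under the floor on all untreated and glucosamine arrays. Esam, also listed, ranged from 20.1 to 80.5 with IL-1β and from 21.0 to 103 with both agents. The replicate d arrays of these groups stood apart at low intensities, and their part in the sums was not tested. Of 8 synovial and fibroblast markers, Pdpn was called higher with IL-1β and Col5a1, Col1a2 and Col3a1 lower. That list summed to 10633 to 12069 untreated, 9701 to 10741 with glucosamine, 8940.0 to 10552 with IL-1β and 9258 to 11463 with both agents.

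The cartilage markers moved the other way, and 9 of 12 tested were called lower with IL-1β. Their summed level was 10236 to 11510 in untreated cultures, 7906 to 8209 with glucosamine, 5661 to 6835 with IL-1β and 6375 to 7397 with both agents. The part of any of these lists in the complement values was not tested.

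Over the 4 group means, each set centred on its own mean, the genes whose pattern lay nearest to that of each member were sought among 11501 genes above the floor in every group mean. For C3 these were Gchfr at a root mean square distance of 0.03 on the log2 scale, Tpcn2 at 0.06 and Serpinb1a at 0.09. For Serping1 they were Parp4, Tfcp2 and Trpc2, at 0.01 to 0.03, for C1r Dnaaf1, Parp12 and Ccdc102a, at 0.01 to 0.02, and for C1s Ece2, Zfp593 and Zfp691, at 0.02 to 0.03. For Cd55 (1370406_a_at) they were Cnppd1, Mast2 and Polr2i, at 0.02. Between members, C3 lay 0.51 from Serping1, 0.65 from C1r and 1.05 from Cd55, and C1r lay 0.17 from Serping1. The nearest genes were picked as the smallest distances among all genes compared, so those between members could not be smaller. The distance depends on the size of a change as well as on its pattern. With 4 points per gene, shared by all genes, these distances are a description only.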

How the data were processed

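The study measured RNA from rat chondrocyte cultures in 4 treatment groups, assigned from the sample titles. The values are intensities that the authors deposited, 1 per probe set and array, linear and partly below 0. Per the methods they were made with Probe Profiler and scaled globally, while the labels name MAS5 (version 5). No columns were left unused and no further scaling was applied. After leaving out 57 of 31099 rows as controls, values were floored at the 25th percentile, and 29263 probe sets above the floor on at least 1 array were fitted in limma 3.58.1 (R 4.3.3; lmFit, eBayes with variance trend, all 13 arrays, 9 residual degrees of freedom), since glucosamine alone has 2 arrays. The script was tested on simulated data. Tables were made with pandas 2.3.3 and numpy 2.4.6 in Python 3.11.15 and plots with matplotlib 3.10.9.

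Platform annotation gave 20826 probe sets 1 gene, 436 several and 9780 none. The representative of a gene is its probe set with the highest mean log2 intensity. Named were all members, of the other complement genes the 2 with the largest change among those called in each of 5 contrasts and any receptor called, and the 3 genes nearest to each member that had a treatment effect. The members and lists were chosen with earlier results of these data known. Leaving out both replicate d arrays was an alternative chosen after seeing the data.

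The labels do not say what the replicate letters mark, and they were checked as pairs. Deviations of same-letter arrays correlated at 0.38 to 0.80 in all 4 pairs of IL-1β with both agents, and at -0.17 to 0.18 in the other group pairs, so the letters were taken to pair the samples in the former contrast only. The values given are those of the fit without the block. For both agents against IL-1β, the blocked value stands beside a result where it changes the call. The number of arrays limits the precision.

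Each result was recomputed with other floors (10th or 40th percentile), quantile normalization, a common 75th percentile, no filter or 1 of at least 4 arrays above the floor, no variance trend, the groups of a contrast alone, the replicate block, the second Cd55 probe set, leaving out arrays, and the methods' own test (analysis of variance with P below 0.0001, then Tukey with P below 0.05, on linear values).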

Additional observations from a re-analysis of the deposited data

Results flagged for a closer look

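In 24 groups of 4 arrays, single arrays far from the rest were looked for with Dixon's test, which flags about 1 in 20 groups by chance. The highest IL-1β array of Serping1, replicate a at 752, stood off from the other 3 (632 to 652) by 0.839 of the group's range. The highest array with both agents on the shared Cfb and C2 probe set 1383391_a_at, replicate d at 144, stood off from the other 3 (90.9 to 98.2) by 0.861 of the range. Without IL-1β replicate a the rise of Serping1 was still called.

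The response to IL-1β differed by the presence of glucosamine for C3, with an interaction of -1.19 on the log2 scale, and for the shared probe set 1389470_at, with -3.01, as tested by limma.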

How the results depend on the processing

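The calls of C3 and Serping1 with IL-1β and between both agents and IL-1β, and the interaction of C3, held under every alternative run. Of the counts of called members, those that moved by over 1.5 times are given here, and the cause was not tested. With IL-1β, 2 members were called; the replicate block gave 4, leaving out both replicate d arrays 4, adding Cfi and Cd55 in both cases, and leaving out single arrays 2 to 4. With glucosamine, 2 were called; quantile normalization gave 4, the 2 groups alone 5 and the replicate block 4, each adding C3 and Serping1 (and the 2 groups alone also C1s), the second Cd55 probe set 1, the methods' own test 0 and leaving out single arrays 2 to 4. Between both agents and IL-1β, 4 were called, 2 by the methods' own test and 6 with the replicate block, which added C1s, Cfi and, beyond that count, the second Cd55 probe set, and changed no other call there. Between both agents and glucosamine, the 1 call of C3 became 0 under a common 75th percentile, no filter, no variance trend, without both replicate d arrays and by the methods' own test, and leaving out single arrays gave 0 to 1. Between both agents and untreated cultures, 2 were called, 1 without variance trend, 0 by the methods' own test and 1 to 2 on leaving out single arrays. Cd55 between both agents and IL-1β reversed on its second probe set (log2 -0.40, adjusted p = 0.10). The labels do not say whether samples with the same letter are paired, and the blocked fit changed no call of C3 or Serping1 with IL-1β. Quantile normalization moved the median of all probe sets with IL-1β from 0.10 to 0 and with both agents from 0.13 to 0.05, and no called member changed direction under it.

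The glucosamine group had 2 arrays, so differences of its size are the least precise, and Cfi and Cfd were too near the floor for a fold change. Values at the floor have no order.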
